A study of Mus musculus with 6 samples.

Results

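A set of 10 genes that resident macrophages of the bone marrow are known to express were followed in leukemia cells of the MLL-AF9 mouse model of acute myeloid leukemia. They are C1qa, C1qb, C1qc, Apoe, Cd5l, Vcam1, Siglec1, Axl, Mertk and Mrc1, 10 of the 26082 gene names in the expression table. The genes were chosen by name after earlier results had shown them raised with treatment and highest in 1 treated sample, so the treatment contrast had been used in choosing them. Their levels and fold changes are therefore given as a description, without a test. Normal bone marrow progenitors of C57BL/6J mice had been transduced with a retrovirus carrying the MLL-AF9 fusion oncogene and GFP, and the leukemia was passaged through mice before it was given to recipients without irradiation, which keep marrow cells of their own. All 6 samples carried MLL-AF9. In the vehicle group, 3 leukemic mice received vehicle by mouth, and in the treated group 3 leukemic mice received DS-5272, an inhibitor of the binding of MDM2 to p53, at 80 mg/kg. Leukemia cells were isolated from the marrow with a cell sorter 24 h later and profiled by RNA-Seq. Ages and sexes of the mice were not given in the sources used here. Levels are FPKM, that is fragments corrected for transcript length and library size, and the estimated depth ran from 23100000 to 43800000 fragments a sample.

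Macrophages that live in the marrow engulf dying cells, aged neutrophils and the nuclei expelled by erythroblasts, and they hold stem cells and erythroblasts near them by adhesion. C1qa, C1qb and C1qc encode the chains that assemble into C1q, the recognition part of the classical complement pathway, which also marks dying cells for uptake. Apoe carries lipids out of cells, and Cd5l is a secreted scavenger receptor protein made by tissue macrophages. Axl and Mertk are receptor tyrosine kinases of the TAM family that recognise dying cells through the bridging proteins Gas6 and protein S. Mrc1 is the mannose receptor, Siglec1 (sialoadhesin) binds sialic acid on neighbouring cells, and Vcam1 binds the integrin of the Itga4 and Itgb1 chains. Vcam1 is also made by stroma, endothelium and myeloid cells, so it marks macrophages less strictly than the others.

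The C1q genes lie side by side on chromosome 4 and span 18.7 kb (GRCm38, chr4:136880129-136898803). A RefSeq promoter entry (GRCm38.p6) was found for 7 of the 10 genes. Each window holds 250 bases before the start and 50 after it, and 2 motifs of macrophage transcription factors were searched on both strands. GAGGAA, the core that PU.1 binds, was found in 28.3% of all 32851 promoter windows and in those of Apoe, Axl, C1qb, C1qc, Cd5l and Mrc1. TGCTGA, a MAF half-site, was found in 19.5% of all windows and in those of C1qb and Cd5l. These 2 promoters are shown because they alone among the 7 hold both motifs. The 250 bases before the start run 5′ to 3′ on the strand of the gene, with the motifs and their reverse complements in capitals. The motifs do not overlap in either sequence. The C1qb sequence lies at chr4:136886201-136886450 on the minus strand, and the Cd5l sequence at chr3:87357631-87357880 on the plus strand.
C1qb: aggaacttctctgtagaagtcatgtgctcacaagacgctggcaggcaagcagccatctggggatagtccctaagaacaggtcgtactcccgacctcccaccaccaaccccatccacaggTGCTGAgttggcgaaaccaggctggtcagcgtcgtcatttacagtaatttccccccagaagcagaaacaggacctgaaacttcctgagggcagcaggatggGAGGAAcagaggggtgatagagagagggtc
Cd5l: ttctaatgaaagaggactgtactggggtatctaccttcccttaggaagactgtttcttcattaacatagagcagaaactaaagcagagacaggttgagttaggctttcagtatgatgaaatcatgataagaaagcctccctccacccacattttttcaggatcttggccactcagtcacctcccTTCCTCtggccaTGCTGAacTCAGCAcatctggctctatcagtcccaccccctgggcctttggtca
In C1qb the PU.1 core begins 30 bases before the start and the MAF half-site 131 bases before it. In Cd5l the PU.1 core begins 66 bases before the start, followed by MAF half-sites 54 and 46 bases before it. A match to these letters describes the sequence and shows no binding.

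Each of the 10 genes was highest in the same library, DS-5272 replicate 1. Genes were tested if their mean over the samples reached 1 FPKM, and of these 11130 genes 12.9% were highest in this library. In 8 of the 10, all but Vcam1 and Siglec1, its level was at least 2 times that of each other sample, against 0.566% of all genes. The 3 DS-5272 samples lay above the 3 vehicle samples without overlap in 7 genes (C1qa, C1qb, C1qc, Cd5l, Siglec1, Mertk and Mrc1), against 32.1% of all genes. DS-5272 replicates 2 and 3 alone lay above all vehicle samples in the same 7 genes, against 39.9% of all genes. These orders went into the choice of the genes, and nothing is read from the comparison of the shares. The second highest sample was DS-5272 replicate 3 for 9 genes and DS-5272 replicate 2 for C1qa. Of the 11130 tested genes, 4447 were highest in DS-5272 replicate 3 and 301 in replicate 2. Among the vehicle samples, replicate 3 was highest for 7 genes. Of the 6 samples, vehicle replicate 2 was lowest for 8 genes, against 12.8% of all genes. Axl, Mertk and Mrc1 had a vehicle mean under 1 FPKM and reached the mean of 1 FPKM required of tested genes only through the DS-5272 group.

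**Figure D1:**
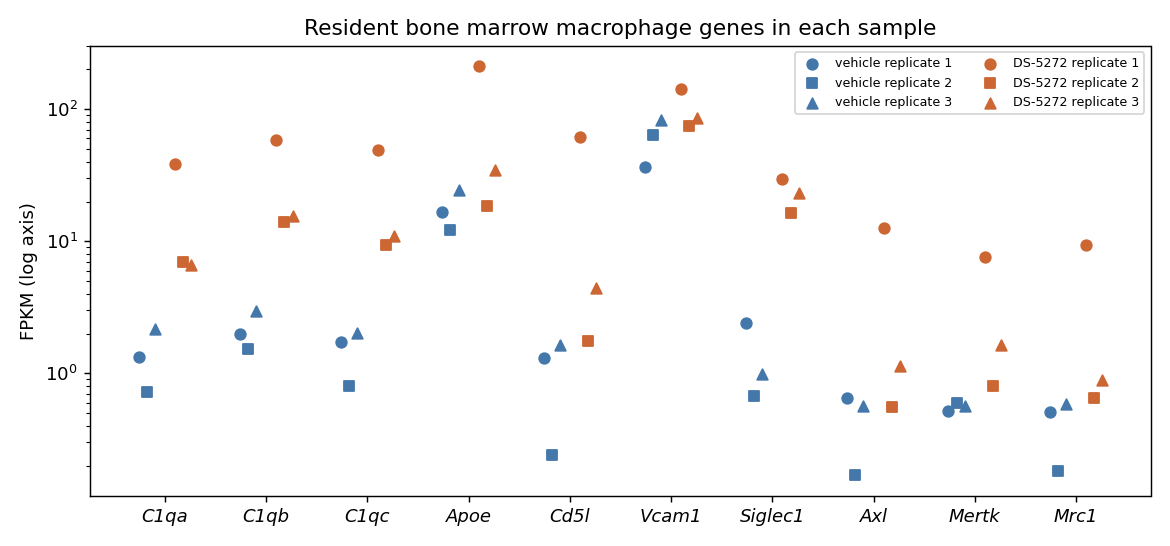
FPKM (log axis) of the 10 resident macrophage genes in each of the 6 samples, vehicle in blue and DS-5272 in orange, with the shape of a point giving the replicate number. DS-5272 replicate 1 (orange circle) is the highest point for each gene, and the vehicle points of Vcam1 sit between 36.6 and 82.8 FPKM, far above those of the other genes.

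The C1q chains were low with vehicle and higher in every DS-5272 sample. C1qa, the A chain, had 1.33, 0.719 and 2.15 FPKM in the vehicle samples, in the order of their replicate numbers as for all genes, and 38.4, 6.92 and 6.64 FPKM in the DS-5272 samples. C1qb stood at 1.97, 1.53 and 2.95 FPKM with vehicle and at 58.2, 14.1 and 15.6 FPKM with DS-5272. C1qc stood at 1.73, 0.800 and 2.03 FPKM with vehicle and at 49.2, 9.42 and 10.9 FPKM with DS-5272. The groups did not overlap for any chain, and DS-5272 replicate 1 stood well above the other treated samples. On the log2(FPKM + 1) scale the difference between the groups was 2.52 (SE 0.64) for C1qa, 2.99 (SE 0.52) for C1qb and 2.90 (SE 0.59) for C1qc. The mean of DS-5272 replicates 2 and 3 was 4.85 times the vehicle mean for C1qa, 6.91 times for C1qb and 6.69 times for C1qc. DS-5272 replicate 1 reached 5.67, 3.92 and 4.84 times the mean of replicates 2 and 3 for the A, B and C chains. The chains thus showed 2 steps, one from vehicle to the treated samples and one from DS-5272 replicates 2 and 3 to replicate 1. Their levels kept close to each other, and C1qc stood at 0.943 to 1.64 times C1qa in all 6 samples. C1qb stood at 1.37 to 2.36 times C1qa.

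The secreted proteins Apoe and Cd5l were mainly high in DS-5272 replicate 1. Apoe stood at 16.6, 12.2 and 24.5 FPKM with vehicle and at 210.9, 18.6 and 34.7 FPKM with DS-5272. DS-5272 replicate 2 lay below vehicle replicate 3, so the groups overlapped, and the difference was 1.55 (SE 0.83) on the log2 scale. Cd5l stood at 1.30, 0.242 and 1.64 FPKM with vehicle and at 61.7, 1.76 and 4.43 FPKM with DS-5272. The groups of Cd5l did not overlap, but DS-5272 replicate 2 was close to vehicle replicate 3, and the difference was 2.32 (SE 1.09). DS-5272 replicate 1 held 13.9 times the Cd5l level of the next sample, the widest gap among the 10 genes, and 6.08 times the Apoe level. The lowest Cd5l value rests on about 17 fragments, as estimated from the depth and the transcript length, so the low values of this gene carry a large counting error. Unlike the ratios of the C1q chains, Cd5l relative to C1qa differed widely between treated samples, at 1.61, 0.254 and 0.667 in DS-5272 replicates 1, 2 and 3.

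The receptors Axl, Mertk and Mrc1 were low in every sample but DS-5272 replicate 1, at 1.63 FPKM or less. Axl stood at 0.649, 0.170 and 0.570 FPKM with vehicle and at 12.6, 0.558 and 1.14 FPKM with DS-5272. Mertk stood at 0.521, 0.594 and 0.563 FPKM with vehicle and at 7.65, 0.809 and 1.63 FPKM with DS-5272. Mrc1 stood at 0.507, 0.182 and 0.583 FPKM with vehicle and at 9.41, 0.656 and 0.887 FPKM with DS-5272. The groups of Mertk and Mrc1 did not overlap, whereas DS-5272 replicate 2 lay below 2 vehicle samples for Axl. The differences were 1.30 (SE 0.77) for Axl, 1.15 (SE 0.54) for Mertk and 1.18 (SE 0.68) for Mrc1, each with a large standard error. DS-5272 replicate 1 held 11.02 times the Axl level of the next sample, 4.69 times that of Mertk and 10.61 times that of Mrc1. Of these 3, Mertk had the highest share in DS-5272 replicate 3, at 21.3% of its level in replicate 1, against 9.07% for Axl and 9.43% for Mrc1.

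Siglec1 and Vcam1, both adhesion molecules, differed from the rest and from each other. Siglec1 stood at 2.43, 0.677 and 0.989 FPKM with vehicle and at 29.5, 16.5 and 23.2 FPKM with DS-5272. All treated samples of Siglec1 were far above all vehicle samples, and the difference of 3.38 (SE 0.31) was the largest of the 10 and had the smallest error. DS-5272 replicate 1 was only 1.27 times the next sample, while the mean of replicates 2 and 3 was 14.6 times the vehicle mean. Vcam1 stood at 36.6, 64.1 and 82.8 FPKM with vehicle and at 142.9, 74.8 and 85.7 FPKM with DS-5272. The groups of Vcam1 overlapped, the difference was 0.74 (SE 0.35), and DS-5272 replicate 1 was 1.67 times the next sample. Its vehicle mean of 61.2 FPKM exceeded that of 86.9% of the tested genes, so Vcam1 was not confined to the sample in which the other genes stood high. The antisense gene Gm43109 overlaps Vcam1, and the libraries were strand-specific, but whether Cufflinks used the strand was not stated. None of the other 9 genes overlaps another gene in the GENCODE annotation.

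**Figure D2:**
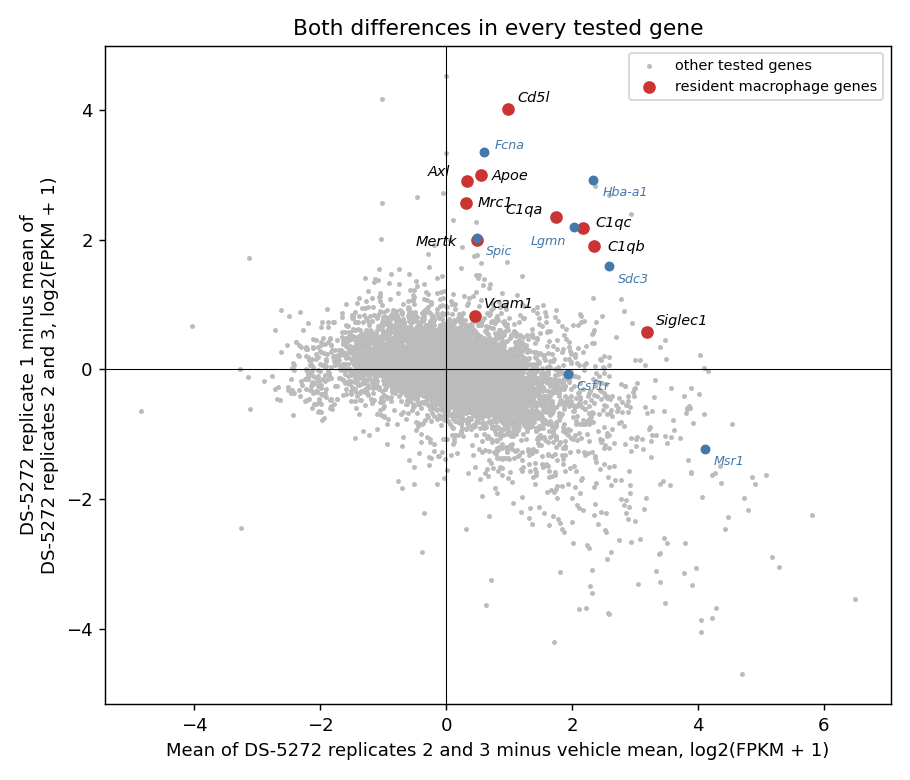
Each point is a tested gene, with the mean of DS-5272 replicates 2 and 3 minus the vehicle mean on the horizontal axis and DS-5272 replicate 1 minus the mean of replicates 2 and 3 on the vertical axis, both in log2(FPKM + 1). Red points are the 10 resident macrophage genes and blue points other named genes, and Cd5l, Apoe, Axl, Mrc1 and Mertk lie high near the vertical line while Siglec1 lies far right near the horizontal line. The axes share the values of replicates 2 and 3.

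The genes thus fell along a range between these patterns. DS-5272 replicate 1 exceeded the mean of the other 5 samples by a median of 3.21 on the log2(FPKM + 1) scale over the 10 genes, against −0.03 over all tested genes. This excess was 4.61 for Cd5l and 1.10 for Vcam1, the highest and the lowest. With 1 sample on one side, this is a description of that library and not of the treatment. The level in DS-5272 replicate 2, as a share of that in replicate 1, was 2.86% for Cd5l, 4.43% for Axl and 6.97% for Mrc1. It was 8.84% for Apoe and 10.6% for Mertk, and from 18.0% to 24.2% for the C1q chains. The shares were 52.4% for Vcam1 and 55.9% for Siglec1. In bulk samples fewer cells of a type and less RNA per cell cannot be told apart.

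Without DS-5272 replicate 1, the fold changes of the 10 genes were smaller, and unequally so. The median log2 fold change was 1.94 with all samples and 0.77 without this library, against 0.04 and 0.06 over all tested genes. The difference for Siglec1 moved from 3.38 to 3.19 (SE 0.33). For C1qa, C1qb and C1qc it was 1.74 (SE 0.26), 2.35 (SE 0.21) and 2.18 (SE 0.25) without the library, each with a smaller error than before. For Cd5l it was 0.98 (SE 0.43), for Apoe 0.55 (SE 0.36) and for Mertk 0.48 (SE 0.19). Axl was left with 0.34 (SE 0.23), Mrc1 with 0.32 (SE 0.18) and Vcam1 with 0.46 (SE 0.33). In the same-numbered pairs of a vehicle and a DS-5272 sample, each of the 10 genes was higher with DS-5272 in all 3 pairs, as were 41.8% of all tested genes. The median log2 difference over the 10 genes was 3.37 in pair 1, 0.86 in pair 2 and 0.90 in pair 3.

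**Figure D3:**
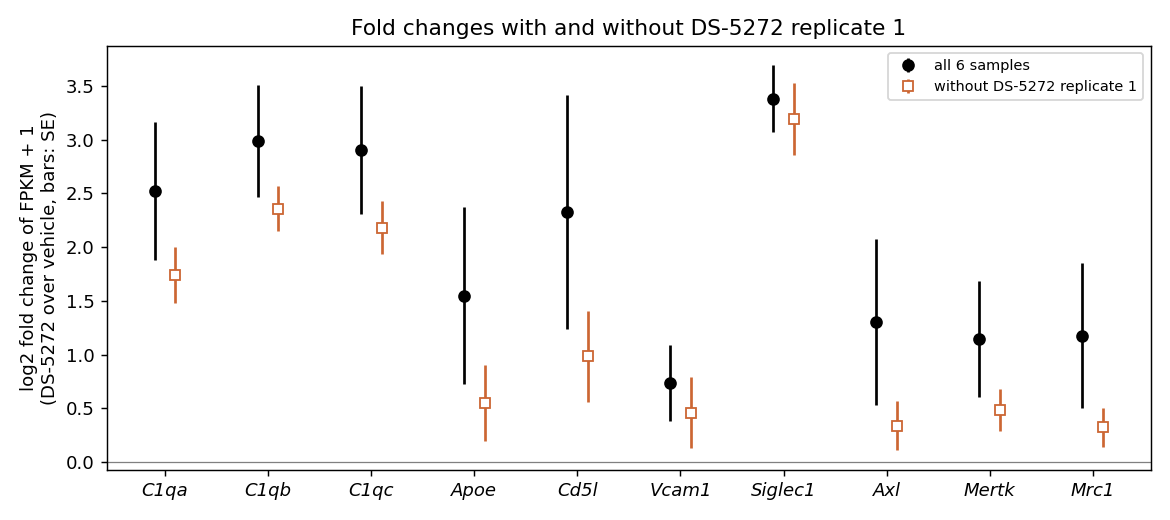
Difference between DS-5272 and vehicle in log2(FPKM + 1) for each of the 10 genes, with bars for the standard error, from all 6 samples (black) and without DS-5272 replicate 1 (orange). Siglec1 and the C1q chains stay at or above 1.74, and Apoe, Vcam1, Axl, Mertk and Mrc1 are at 0.55 or less.

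A list of 30 other macrophage genes was set beside them, of which 26 had an entry of their own and 16 were tested. By limma with Benjamini-Hochberg adjustment, 10 of the 16 were higher with DS-5272 and 0 were lower, against 24.2% of all tested genes higher and 22.0% lower. The median log2 fold change of the 16 was 1.98, against 0.04 over all tested genes. Msr1, Fcgr1, Maf, Spic, Fcna and Pltp had vehicle means under 1 FPKM. They reached the mean of 1 FPKM required of tested genes only through the DS-5272 group, which favours a rise. Nothing is therefore read from setting the count and the median of the 16 against all genes. Rescaling to a common upper quartile or total moved the median of all genes by −0.12 or −0.24, and the share of higher genes among all called genes from 52.4% to 41.3% or 32.5%. The count of 10 was the same under both. The same 10 genes were also called without DS-5272 replicate 1, where 26.4% of all genes were higher. Among them were Adgre1, Csf1r, Msr1, Stab1, Fcgr1, Fcgr4, Maf, Lgmn and Sdc3. The list was written with earlier results of these data known.

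The macrophage genes with the largest changes did not all peak in DS-5272 replicate 1. Msr1, a scavenger receptor, rose by 3.70 (SE 0.34, adjusted p = 0.00121) and stood at 0.403, 0.711 and 0.565 FPKM with vehicle and at 10.5, 26.6 and 25.2 FPKM with DS-5272. It was lowest of the treated samples in replicate 1. Fcgr1, a high-affinity receptor for IgG, rose by 3.36 (SE 0.25, adjusted p = 0.000687), from 1.08, 0.424 and 0.361 FPKM to 20.7, 11.9 and 14.4 FPKM. Its treated samples stood in the same order as those of Siglec1. Sdc3, a heparan sulfate proteoglycan, stood at 1.82, 0.573 and 0.859 FPKM with vehicle and at 35.6, 9.88 and 12.7 FPKM with DS-5272 (log2 fold change 3.12, SE 0.47, adjusted p = 0.00411). Lgmn, a lysosomal protease, stood at 1.77, 1.22 and 2.18 FPKM with vehicle and at 49.4, 8.50 and 11.7 FPKM with DS-5272 (2.76, SE 0.59, adjusted p = 0.0108). Sdc3 and Lgmn showed the same 2 steps as the C1q chains. Csf1r, the receptor of the macrophage growth factor, showed no such excess, at 104.3, 110.9 and 108.2 FPKM in the treated samples against 31.9, 25.7 and 26.6 FPKM with vehicle.

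DS-5272 replicate 1 was the highest sample for 11 of the 16 tested genes, against 12.9% of all tested genes, and at least 2 times each other sample for 7 of the 16, against 0.566%. Of the 7, Maf, Spic, Fcna and Pltp had vehicle means of 0.391, 0.179, 0.636 and 0.491 FPKM. They reached the mean of 1 FPKM required of tested genes only through DS-5272 replicate 1, so nothing is read from the comparison of these shares. With the genes too low to be tested, it was highest for 18 and at least 2 times each other sample for 13 of the 26 with an entry. No share over all genes with an entry was computed for these counts. Several of the 13 are receptors by which tissue macrophages take up particles, and they were almost absent elsewhere. Marco, which binds bacteria, was listed at 0 in all vehicle samples and had 2.79, 0.0543 and 0.110 FPKM with DS-5272. Timd4, a receptor for phosphatidylserine, reached 1.18 FPKM in DS-5272 replicate 1 and at most 0.0550 FPKM elsewhere. Vsig4, a complement receptor, reached 1.31 FPKM there and at most 0.188 FPKM elsewhere. Stab2, a scavenger receptor for hyaluronan, reached 2.09 FPKM against at most 0.309 FPKM, and Cd36, a receptor for oxidised lipids, 2.89 FPKM against at most 0.280 FPKM. These 5 genes were too low to be tested. Fcna, a ficolin of macrophages, stood at 0.836, 0.276 and 0.797 FPKM with vehicle and at 23.8, 1.08 and 1.86 FPKM with DS-5272 (adjusted p = 0.151). Spic, the transcription factor of macrophages that recycle iron, stood at 0.330, 0.0961 and 0.110 FPKM with vehicle and at 5.65, 0.477 and 0.828 FPKM with DS-5272 (adjusted p = 0.12). With the replicate block, which compares same-numbered samples, Spic passed the threshold (limma, adjusted p = 0.0421), as did Pltp, a phospholipid transfer protein (adjusted p = 0.0353).

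The remaining genes of the 13 were Maf, Cd163, Pltp and Clec4f. Maf, a macrophage transcription factor, rose by 1.28 (SE 0.33, limma, adjusted p = 0.0201), at 4.78, 1.33 and 1.84 FPKM in the treated samples and 0.358 to 0.457 FPKM with vehicle. Without vehicle replicate 1, 2 or 3 its adjusted p was 0.0516, 0.0644 or 0.0589. Cd163, the hemoglobin scavenger receptor, stood at 3.09, 0.755 and 1.04 FPKM with vehicle and at 7.10, 0.860 and 1.49 FPKM with DS-5272. Its log2 difference of 0.45 (adjusted p = 0.548) turned to −0.18 without DS-5272 replicate 1. Pltp reached 5.67 FPKM in DS-5272 replicate 1 and at most 1.58 FPKM elsewhere. Clec4f, a marker of liver macrophages, was listed at 0.0129 FPKM in DS-5272 replicate 1 and at 0 elsewhere, a trace from which no order can be read.

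**Figure D4:**
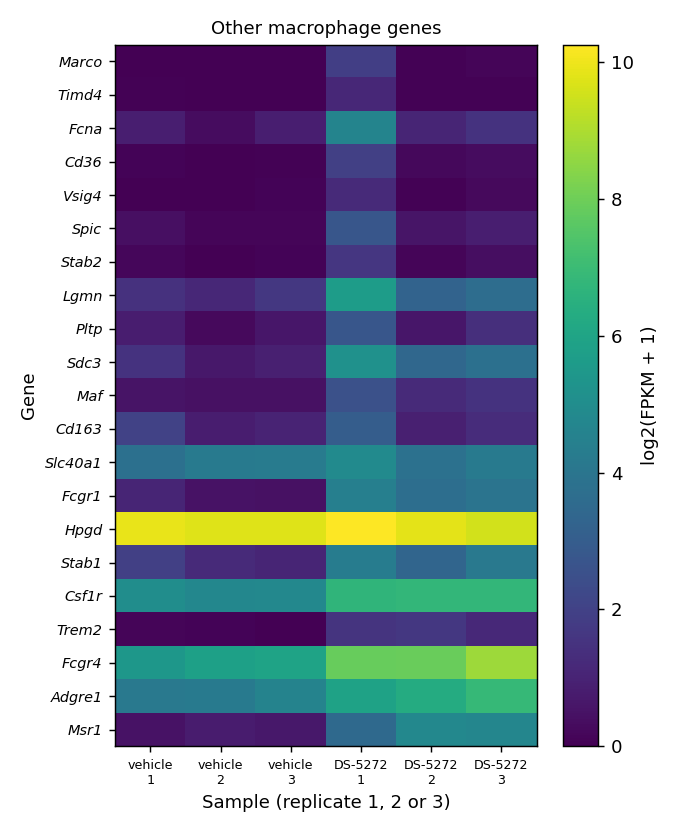
Level, as log2(FPKM + 1), of other macrophage genes that reach at least 1 FPKM in a sample, with 1 row a gene and 1 column a sample, ordered by the level in DS-5272 replicate 1 over the highest other sample. Marco, Timd4 and Fcna at the top are bright in 1 column, while Msr1 at the bottom is brighter in DS-5272 replicates 2 and 3.

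Partners of the 10 genes were counted by role. The shares over all tested genes, to be set beside each count, were again 24.2% higher and 22.0% lower, with a median log2 fold change of 0.04. Of the 9 tested genes of a list of complement components, regulators and C1q receptors, 6 were higher and 1 was lower with DS-5272, with a median log2 fold change of 0.91. The classical components C1ra, C1s1 and C2 were too low to be tested, and Cfp and Cfb below belong to the alternative pathway. Cfp (properdin) rose by 2.51 (SE 0.17, limma, adjusted p = 0.000654), and C5ar1, the receptor of the fragment C5a, by 2.45 (SE 0.45, adjusted p = 0.007). Lrp1, a receptor for many ligands of dying cells, rose by 1.98 (SE 0.20, adjusted p = 0.00155), and complement factor Cfb by 1.87 (SE 0.31, adjusted p = 0.00548). Cfp stood at 85.1, 60.4 and 57.2 FPKM with vehicle and at 386.8, 361.1 and 406.9 FPKM with DS-5272, without the excess in DS-5272 replicate 1 seen in the C1q chains. C1s1, which encodes a protease that works with C1q, was at 0 to 0.0482 FPKM in all samples, and C1ra at 0.207 to 1.97 FPKM. C2 and Cd55, an inhibitor of complement, were at least 2 times higher in DS-5272 replicate 1 than in each other sample, at 0.396 and 0.856 FPKM. C3, the central component, had a log2 difference of 0.91 (adjusted p = 0.083) and passed the threshold with the replicate block (adjusted p = 0.00504).

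Of the 9 tested genes of the TAM receptor and efferocytosis list, 3 were higher and 0 were lower with DS-5272, against 24.2% and 22.0% of all tested genes, and the median log2 fold change was 0.43. A count of 3 of 9 is close to the share over all genes. The replicate block called 5. Those called without it were Stab1, a scavenger receptor (2.52, SE 0.32, limma, adjusted p = 0.00274), Lrp1 and Itgb5, an integrin chain (0.58, SE 0.16, adjusted p = 0.0245). Itgb5 did not pass after rescaling to a common upper quartile or total (adjusted p = 0.0871 or 0.27), nor without vehicle replicate 2 or 3 or DS-5272 replicate 1 or 3 (0.0559 to 0.0929). Gas6, the ligand of Axl and Mertk, stood at 0.0798, 0.0558 and 0.0918 FPKM with vehicle and at 1.56, 0.194 and 0.619 FPKM with DS-5272. Ligand and receptors were thus all highest in DS-5272 replicate 1. Pros1, which encodes protein S, stood at 6.04, 3.62 and 3.49 FPKM with vehicle and at 9.39, 4.54 and 6.70 FPKM with DS-5272 (adjusted p = 0.152, with the replicate block 0.0205). Tyro3, the remaining TAM receptor, did not exceed 0.0210 FPKM in any sample.

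Of the 13 tested LXR and lipoprotein genes, which share lipid transport with Apoe, 8 were higher and 1 was lower with DS-5272, against 24.2% and 22.0% of all tested genes, and the median log2 fold change was 1.08 with all samples and 0.49 without DS-5272 replicate 1. Lpl, Abca1, Pltp and Apoc1 had vehicle means under 1 FPKM and reached the mean required of tested genes only through the DS-5272 group. Nothing is therefore read from setting the count and the median of the 13 against all genes. Abcg1, a cholesterol exporter, rose by 1.73 (SE 0.22, limma, adjusted p = 0.00271) and Apoc2, the activator of lipoprotein lipase, by 1.67 (SE 0.20, adjusted p = 0.00244). Lpl, the lipase itself, stood at 0.167, 0.0275 and 0.239 FPKM with vehicle and at 6.01, 1.84 and 0.743 FPKM with DS-5272 (1.52, SE 0.47, adjusted p = 0.0375). Its adjusted p was above the threshold without vehicle replicate 1, 2 or 3 or DS-5272 replicate 2 (0.0714 to 0.106), with no filter (0.0701) and with a common total (0.0576). Abca1, which loads lipid onto Apoe, stood at 0.146, 0.132 and 0.175 FPKM with vehicle and at 4.49, 0.495 and 0.746 FPKM with DS-5272. Its log2 difference of 1.08 did not pass the threshold (adjusted p = 0.102), and that of 0.49 without DS-5272 replicate 1 did (adjusted p = 0.0372), as did that of 2.40 with a pseudocount of 0.1 (adjusted p = 0.0442). Apoc1 reached 3.21 FPKM in DS-5272 replicate 1 and at most 0.930 FPKM elsewhere, and its log2 difference of 0.32 (adjusted p = 0.527) turned to −0.15 without that library.

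Of the 11 tested adhesion and lectin genes, 6 were higher and 1 was lower with DS-5272, against 24.2% and 22.0% of all tested genes, and the median log2 fold change was 1.19. The integrin chains Itgb7 and Itgb2 rose by 2.12 (SE 0.30, limma, adjusted p = 0.00372) and 1.88 (SE 0.17, adjusted p = 0.00123). The sialic acid receptors Siglece and Cd33, relatives of Siglec1, rose by 1.84 (SE 0.17, adjusted p = 0.00122) and 1.41 (SE 0.20, adjusted p = 0.00355). None of these 4 was highest in DS-5272 replicate 1. The chains of the integrin that binds Vcam1 did not pass the threshold, with differences of −0.15 (SE 0.14, adjusted p = 0.373) for Itga4 and 0.17 (SE 0.09, adjusted p = 0.153) for Itgb1. Siglecg fell by 1.04 (SE 0.13, adjusted p = 0.00289). Cd22, a siglec of B cells, stood at 1.21, 0.478 and 0.326 FPKM with DS-5272 and at most 0.0737 FPKM with vehicle, and Siglech was listed at 0.0129 FPKM in DS-5272 replicate 1 and at 0 elsewhere.

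The profile most like that of the 10 genes was searched among 1028 other genes with a range of at least 2 on the log2(FPKM + 1) scale. By Pearson correlation with the mean of the 10 over the 6 samples, the nearest were Lgmn (r = 0.988), Maf (r = 0.987), Frmd4b, Scarf1, Anpep, Abca1, Naaa, Spic, Fcna and Hba-a2 (r = 0.957). Each of these was highest in DS-5272 replicate 1, and with 1 library far from the rest the coefficients mainly describe that library. Scarf1, a scavenger receptor, stood at 3.835, 0.7017 and 1.001 FPKM in the treated samples and Anpep, an aminopeptidase of myeloid cells, at 4.15, 0.792 and 1.11 FPKM. Naaa, a lysosomal amidase, was expressed in all samples, at 4.19 to 4.83 FPKM with vehicle and at 25.56, 10.02 and 12.13 FPKM with DS-5272. Frmd4b stood at 3.94, 0.654 and 0.982 FPKM in the treated samples.

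The genes with the widest gap between DS-5272 replicate 1 and the next sample were Mir680-2, Snora30, Fcna, Hba-a1, Fabp4, Hba-a2, Igf1, Slco2b1, Gm19831 and Lgmn, and 3 genes stood in both groups of 10. Mir680-2 and Snora30 were listed at 0 in the other 5 samples, and in genes this short few fragments give a large FPKM. Fabp4, a fatty acid carrier of macrophages, fat cells and endothelium, reached 9.20 FPKM against at most 0.944 FPKM. Igf1, a growth factor, reached 6.38 FPKM against at most 0.593 FPKM, and Slco2b1, an organic anion transporter, 5.16 FPKM against at most 0.377 FPKM. Gm19831, a predicted gene, reached 133.8 FPKM against at most 29.6 FPKM.

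Markers of other cell types differed in whether they moved with the 10 genes. The 10 genes summed to 63.6, 81.2 and 118.8 FPKM with vehicle and to 620.4, 144.1 and 184.9 FPKM with DS-5272. The 10 erythroid markers with an entry summed to 2.49 to 4.66 FPKM with vehicle and to 146.2, 27.4 and 12.7 FPKM with DS-5272, so DS-5272 replicate 1 was again the highest. This sum came mostly from the alpha-globin genes Hba-a1 (84.2 FPKM in DS-5272 replicate 1) and Hba-a2 (55.2 FPKM), while 7 of the 10 stayed under 1 FPKM and Car1 was at 0. Both globin genes were higher in DS-5272 replicate 2 than in replicate 3, whereas 9 of the 10 macrophage genes were higher in replicate 3 than in replicate 2. Of all tested genes, 4447 were highest in DS-5272 replicate 3 and 301 in replicate 2, so the order of the 9 is not particular to macrophage genes. Stroma and endothelium markers summed to 29.4 to 60.8 FPKM with vehicle and to 113.6, 74.1 and 81.6 FPKM with DS-5272, mostly from Pecam1, and 12 of 14 stayed under 1 FPKM. T and NK cell markers summed to 1.86 to 3.255 FPKM with vehicle and to 8.21, 3.70 and 5.27 FPKM with DS-5272. In DS-5272 replicate 1, Cd4 gave 3.28, Gzma 1.95, Klrk1 0.870 and Ncr1 0.354 FPKM, while Cd3e and Cd3d were under 0.05 FPKM. That library was highest for 6 of these 12 genes, and 9 of the 12 stayed under 1 FPKM. No share over all genes with an entry was computed for this count. B and plasma cell markers did not exceed a sum of 3.56 FPKM, dendritic cell markers 9.89 FPKM, and megakaryocyte, basophil and eosinophil markers 12.9 FPKM.

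Myeloid markers that the leukemia cells can express themselves differed from the 10 genes in the order of the treated samples. Of the 8 tested monocyte markers, 6 were higher with DS-5272 and 0 lower, against 24.2% and 22.0% of all tested genes. Treml4, 1 of the 6, reached the filter only through the DS-5272 group. Their median log2 fold change of 1.93 was near the 1.98 of the other macrophage genes, so a rise with DS-5272 was not particular to macrophage genes. Monocyte markers summed to 2308 to 2580 FPKM with vehicle and to 8051, 8678 and 11010 FPKM with DS-5272, and neutrophil markers to 1952 to 4112 FPKM and to 3551, 9924 and 15600 FPKM. With DS-5272 the neutrophil sum came mostly from S100a8 and S100a9. With vehicle its largest gene was Elane, at 1579, 1800 and 2128 FPKM, so the sums of the groups rest on largely different genes. Of the 11 genes of that list 7 were higher and 2 lower, against 24.2% and 22.0% of all tested genes. The lower ones were Elane (−2.54, limma, adjusted p = 0.00173) and Mpo (−5.07, adjusted p = 0.00136), a protease and a peroxidase of early granulocyte granules. The monocyte and neutrophil sums were both lowest of the treated samples in DS-5272 replicate 1, the library in which the 10 genes were highest. Vehicle replicate 1 likewise had the lowest vehicle sums, at 2308 and 1952 FPKM. The treated monocyte sums came mostly from Lyz2 (6108, 6870 and 8815 FPKM). DS-5272 replicate 1 was the highest of the 6 samples for 1 of the 8 tested monocyte markers, Ccr2, and for 0 of the 11 neutrophil markers. Both counts are close to the 12.9% of all tested genes that were highest there. Ace, too low to be tested, was also highest there. Ly6c2 stood at 898, 683 and 497 FPKM in the treated samples. Genes of the MLL-AF9 program summed to 539 to 629 FPKM with vehicle and to 503 to 528 FPKM with DS-5272, with Mecom at 0, so genes of the labelled leukemia cell were expressed in all samples. Of its 6 tested genes, 2 were lower with DS-5272, the growth factor receptors Flt3 (−3.81, limma, adjusted p = 0.000687) and Kit (−1.96, adjusted p = 0.00462). A count of 2 of 6 is close to the 22.0% of all tested genes that were lower. In the study's methods for sorted marrow, red cells were lysed before the sort, and the leukemia cells carried GFP. Whether the sort left out all host cells was not tested. The gate used for the RNA-Seq samples was not given in the sources used here. The part of host macrophages, of red cells or of the leukemia cells themselves in the levels of the 10 genes was not tested.

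**Figure D5:**
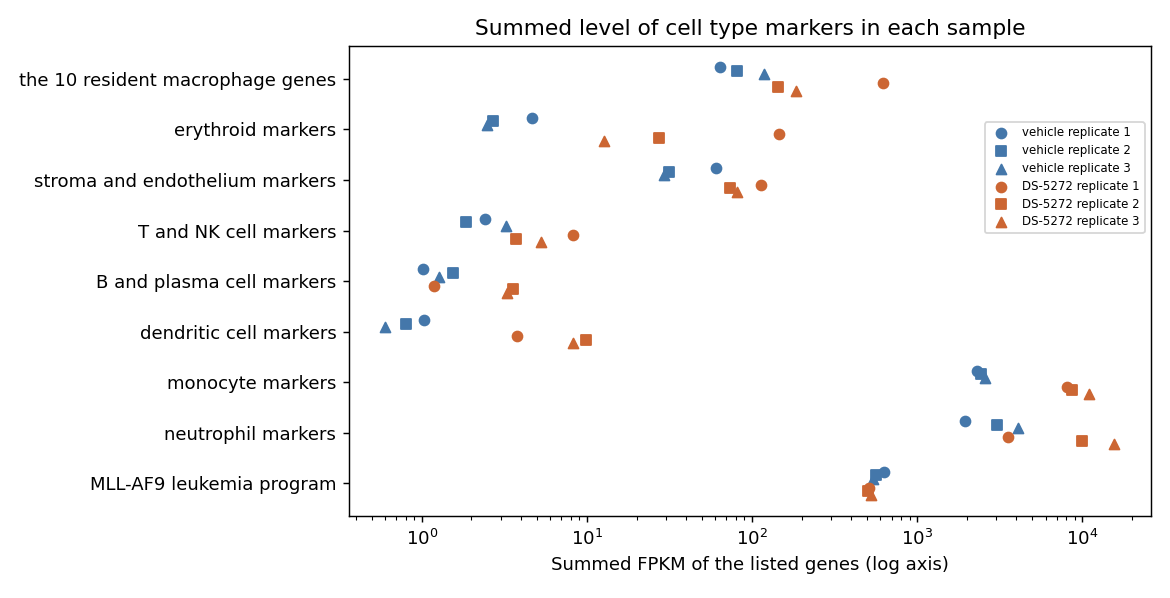
Summed FPKM (log axis) of the 10 resident macrophage genes and of marker lists of other cell types in each sample, vehicle in blue and DS-5272 in orange, with the shape of a point giving the replicate number. DS-5272 replicate 1 (orange circle) is highest for the 10 genes and for the erythroid, the stroma and endothelium, and the T and NK cell markers. It is lowest of the treated samples for B and plasma cell, dendritic cell, monocyte and neutrophil markers.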

How the data were processed

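RNA-Seq was performed on sorted MLL-AF9 leukemia cells of 3 vehicle and 3 DS-5272 mice. The authors trimmed the reads (cutadapt 1.8.1), aligned them to GRCm38 with TopHat 2.1.1 and deposited FPKM values per gene from Cufflinks 2.2.1, which are scaled to transcript length and library size and are not counts. Entries with the same symbol were summed, and entries that join several genes were left out of the lists. Values were compared as log2(FPKM + 1), a scale on which changes of low genes look smaller, by limma 3.58.1 in R 4.3.3 (mean-variance trend, two-sided) over the 11130 genes whose mean reached 1 FPKM. The Benjamini-Hochberg threshold was 0.05. The code was tested on simulated data. For a single gene, an exact permutation test of 3 against 3 cannot give a p below 0.1.

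The 10 genes, the partner and marker lists and the comparisons were chosen with earlier results of these data known. From each partner list, up to 4 called genes with the largest change were named, with those in which DS-5272 replicate 1 was at least 2 times each other sample. The 10 genes nearest in profile, the 10 with the widest gap and defining markers were also named. Csf1r, Itga4, Itgb1, C3, Pros1, Tyro3, C1s1, C1ra, Siglecg, Elane, Mpo, Flt3 and Kit were added after their values were seen. Some genes of the lists enter the counts but are not reported here by name.

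The table gives no depth. Depth was estimated from the steps of FPKM values under 0.15 and gives the scale only. The labels do not say what replicate numbers share. Deviations from group means correlated by 0.66, 0.21 and 0.43 between same-numbered samples and by −0.58 to 0.34 otherwise. On this basis the numbers were taken as pairs (limit 0.1) for the replicate block only. Vehicle replicate 2 correlated more with DS-5272 replicate 3 (0.34) than with DS-5272 replicate 2 (0.21). The pairs were thus inferred from the same expression values and are uncertain. The comparison was repeated with a pseudocount of 0.1, without the filter, with a required mean of 5 FPKM, after scaling to a common upper quartile or total, with the replicate block and without each sample. Gene positions are from the GENCODE annotation of GRCm38. Python 3.11.15 with pandas 2.3.3 and matplotlib 3.10.9 was used.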

Additional observations from a re-analysis of the deposited data

How the results depend on the processing

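With a common total, 1713 genes were higher with DS-5272 and 3555 lower, against 2697 and 2451 in the reported comparison. With the replicate block, which pairs same-numbered samples, 3367 were higher and 2771 lower, and 12 instead of 10 other macrophage genes were called. Leaving out each sample in turn gave 1623 (without vehicle replicate 2) to 2934 (without DS-5272 replicate 1) higher genes and 1389 (without vehicle replicate 2) to 2432 (without DS-5272 replicate 1) lower genes, with 1492 lower genes without vehicle replicate 3. The count of other macrophage genes ranged from 9 to 11 over the sample omissions. The median log2 fold change of the 10 resident macrophage genes ranged from 0.77 without DS-5272 replicate 1 to 2.58 without DS-5272 replicate 2, and was 2.59 with a pseudocount of 0.1. The log2 difference ranged from −0.18 to 0.88 for Cd163 and from −0.15 to 0.56 for Apoc1, each lowest without DS-5272 replicate 1. The cause was not tested, except that each omission leaves fewer samples. The other 49 recomputed summary values kept their direction and stayed within the limits set for them. The block also called 7 instead of 6 complement genes and 9 instead of 8 LXR and lipoprotein genes higher, and 5 instead of 3 of the TAM receptor and efferocytosis list. Of single genes named in the report, it changed the calls of Spic, Pltp, C3 and Pros1. Values under 1 FPKM rest on few fragments, down to about 17 for Cd5l, and depth was lower in the DS-5272 samples.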
